A study of Brachypodium distachyon with 8 samples.

Results

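Small RNA reads at 3' UTRs were compared between leaves heated in air at 42 °C for 3 h and leaves heated in air at 42 °C for 1 h. The plants were Bd21, the standard inbred diploid line of the model grass Brachypodium distachyon. A locus was 1 transcript identifier, and loci entered with 40 or more reads summed over both libraries. This held for 10604 of 30815 identifiers, from 7590 of 24118 genes. At the edge of this rule, 173 loci had exactly 40 reads and 153 had 39. The loci compared held 96.6% of the 3' UTR reads at 3 h and 97.7% at 1 h.

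The study asked how small RNA populations of Brachypodium respond to abiotic stress, and gave each stress a short and a long time. The other libraries used below were from plants immersed in water of 42 °C for 3 h or 1 h, kept at 4 °C for 24 h or 6 h, grown for 48 h in soil soaked with 300 mM NaCl, and left unstressed at 22 °C. Each condition had 1 library, so each difference is between 2 libraries and carries no replicate check. The protocols name 2 library kits and do not tie either to a library, so an effect of the kit, the plant or the library and an effect of time cannot be told apart.

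Plant small RNAs are cut from double-stranded RNA by Dicer-like enzymes, and their length depends on the enzyme. Those of 21 nt include many microRNAs, which guide the cleavage of messenger RNAs. Those of 24 nt are mostly short interfering RNAs, which guide DNA methylation at transposons and repeats. Reads of other lengths at a transcript end can also be fragments of that transcript, and length alone does not separate the sources.

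The 3' UTR reads summed to 4027943 at 3 h and 4622303 at 1 h, over 26825 and 26116 loci. The 2 libraries are therefore among the larger ones of the series, which ran from 1730029 to 4622303 reads. The files do not pair identifiers with gene names or sequences, and none of the genes could be matched to the RefSeq table, so loci are given by identifier and without a function. UTR lengths are not given either, and reads are per locus, not per length of UTR. Counts leaned to even numbers: 67.8% of entries (a locus at 1 read length) were even at 3 h and 65.5% at 1 h. Entries of 2 reads outnumbered entries of 1 read, 67782 to 25594 at 3 h and 62007 to 26419 at 1 h, so some reads may have been counted more than once. At 669 loci (6.31%) every entry of both libraries was even. Of the 10604 loci, 4435 had counts within 10% of another locus over all lengths and libraries, nearly always a transcript of the same gene, and 55 of these matched a locus of another gene.

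The length make-up of the whole libraries differed. Reads of 24 nt were 16.0% of all reads at 3 h (95% interval 15.9% to 16.0%) and 10.3% at 1 h (10.2% to 10.3%). Reads of 15 to 19 nt were 34.8% at 3 h and 27.1% at 1 h, and those of 20 to 23 nt 25.05% and 23.2%. Reads of 25 nt or longer were lower, 24.1% at 3 h and 39.5% at 1 h. Most of that gap was in reads of 30 and 31 nt, which were 7.26% at 3 h and 18.2% at 1 h. For every 21 nt read there were 2.40 reads of 24 nt at 3 h (2.39 to 2.41) and 1.86 at 1 h (1.85 to 1.87). Intervals here and below are exact (Clopper-Pearson) and cover counting error only, since amplified reads are not independent molecules.

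A few loci set part of this profile. The 10 most abundant loci held 56.4% of reads at 3 h and 68.7% at 1 h. Without them reads of 15 to 19 nt were 24.7% at 3 h and 27.0% at 1 h, and reads of 20 to 23 nt 25.7% and 26.1%, so both classes turned from higher to lower at 3 h. Reads of 30 and 31 nt turned the other way, to 2.996% at 3 h and 2.55% at 1 h. Reads of 25 nt or longer were then 16.1% at 3 h and 17.6% at 1 h. Without the 100 most abundant loci they were slightly higher at 3 h, at 13.5% against 13.3%. Reads of 24 nt kept their direction, with 33.4% at 3 h and 29.3% at 1 h, and with 42.8% and 39.3% outside the 100 most abundant. The 24 nt to 21 nt ratio did too, at 3.90 and 3.09 without the 10 and 4.58 and 3.55 without the 100. Reads of 33 to 38 nt were also lower at 3 h in every version, 4.14% against 9.04% over all loci, 2.56% against 4.96% without the 10, and 1.64% against 2.81% without the 100.

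**Figure D1:**
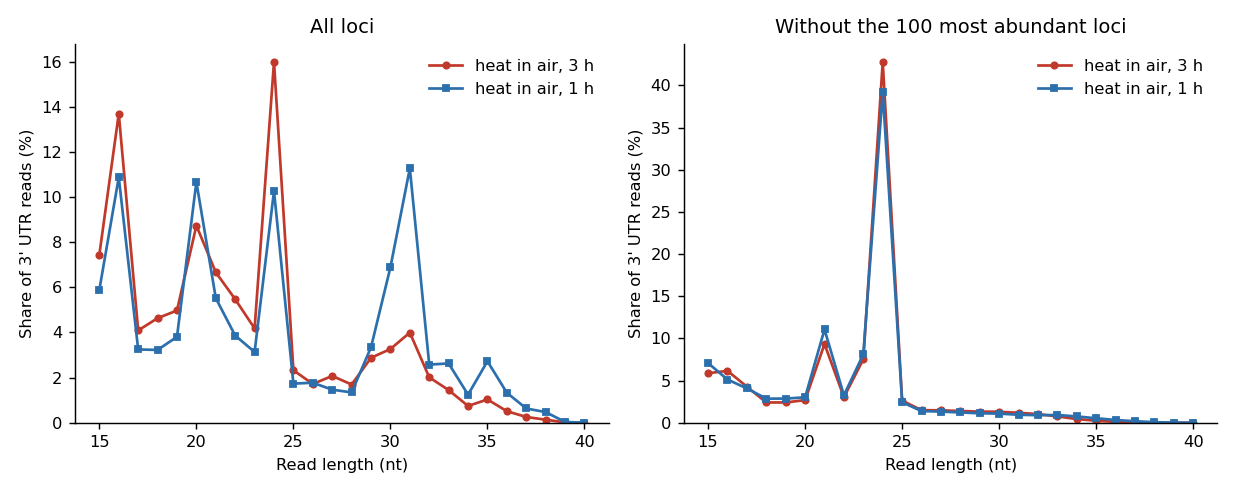
Share of 3' UTR reads at each read length (nt) after 3 h (red circles) and 1 h (blue squares) of heat in air, over all loci (left) and without the 100 most abundant loci (right). On the left the 1 h library peaks at 31 nt with 11.3% of reads against 4.00% at 3 h, and on the right 24 nt leads in both libraries, with 42.8% at 3 h and 39.3% at 1 h.

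Bradi2g13080.1 and Bradi3g27270.1 together held 36.9% of the 30 and 31 nt reads at 3 h and 84.9% at 1 h. Bradi2g13080.1 held 2.21% of all reads at 3 h (89182 reads) and 11.7% at 1 h (542069 reads). Bradi3g27270.1 held 2.18% at 3 h (87872 reads) and 11.6% at 1 h (537743 reads). Their totals differ by 1.47% at 3 h and 0.798% at 1 h, so reads counted at both loci cannot be told apart from reads of either. For levels, reads at 3 h were divided by 1.33, the trimmed mean of ratios (TMM) between the 2 libraries, and are called scaled reads. On that scale Bradi2g13080.1 fell 8.10-fold at 3 h (8.04 to 8.15) and Bradi3g27270.1 fell 8.15-fold (8.09 to 8.21). Reads of 31 nt led both loci at both times, at 36.8% of Bradi2g13080.1 reads at 3 h and 41.1% at 1 h, so their level differed while their length make-up stayed close. In water the pair was also lower at the later time, with 7.70% of reads at 3 h and 16.9% at 1 h for Bradi2g13080.1.

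Other abundant loci differed in level or in length. Bradi1g05790.1 held 5.88% of reads at 3 h and 10.3% at 1 h and was 2.68-fold lower (interval 2.67 to 2.70), with 20 nt leading at 69.8% and 66.9% of its reads. It also led the 35 nt reads, with 10249 at 3 h and 42729 at 1 h. Bradi1g05760.1 fell 2.55-fold at 3 h (2.52 to 2.59). Bradi5g10760.1 was 2.01-fold lower (1.999 to 2.02), at the 2-fold limit and not past it with its whole interval. At Bradi5g10760.1 78.3% of reads were of 16 nt at 3 h and 89.2% at 1 h. Bradi2g06470.1, also a 16 nt locus, took the lead among 16 nt reads at 3 h, with 167434 against 78310 at 1 h. As a whole Bradi2g06470.1 was 1.31 times its 1 h level under TMM and 1.997 times under scaling by total reads.

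Bradi3g13900.1 had close to the same scaled level at both times, 0.963 times at 3 h, with another set of lengths. Reads of 18 nt led it at 3 h with 39.6% of its reads, against 14.2% at 1 h. Reads of 31 nt led it at 1 h with 27.95%, against 11.2% at 3 h. Its 2 length profiles overlapped by 57.8%, against 83.8% to 93.9% at the other 9 abundant loci. Bradi4g27190.1 and Bradi5g00200.1, the most abundant loci at 3 h with 18.5% and 12.75% of reads, were 0.924 and 0.895 times their 1 h levels under TMM. Scaling by total reads turned Bradi4g27190.1, Bradi5g00200.1 and Bradi3g13900.1 to 1.41, 1.37 and 1.47 times, while the 4 called decreases kept their direction. Those of Bradi1g05790.1 and Bradi1g05760.1 were then within 2-fold, at 0.569 and 0.599 times.

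Locus by locus, most 3' UTRs had similar scaled reads at both times: 82.3% of the 10604 loci lay within 2-fold. A locus was called higher or lower where the whole 95% interval of its ratio lay beyond 2-fold. By this rule 251 loci (2.37% of those compared, 183 genes) were higher at 3 h and 432 (4.07%, 301 genes) were lower. No gene had transcripts called in both directions. The loci called higher formed 188 groups of near-identical counts and the lower ones 307. The bounds nearest the limit were 2.0045-fold inside and 1.9997-fold outside it for higher loci, and 2.0037-fold and 1.9991-fold for lower loci. The balance depended on scaling: by total reads, which moves every log2 ratio up by 0.61, 842 loci were higher and 185 lower. Of the called loci 82.0% were then higher, against 36.75% under TMM, and all 251 higher loci and 185 of the 432 lower loci were called by both.

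The loci called higher had a median of 148 reads at 3 h and 25 at 1 h, with 36 to 9327 reads at 3 h. Their median scaled difference was 2.11 on the log2 scale, and 29 were beyond 8-fold. The loci called lower had a median of 52 reads at 3 h and 168.5 at 1 h. Their median size of difference was 2.06 on the log2 scale, and 58 were beyond 8-fold. Calls were more frequent at deeper loci, where intervals are narrower: 1.43% higher and 1.87% lower among loci with 40 to 99 reads, and 11.3% each way among the 371 with 1000 or more. By the chromosome digit in the identifier, 1.80% to 2.98% of loci were higher and 3.3003% to 4.98% lower on chromosomes 1 to 5.

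**Figure D2:**
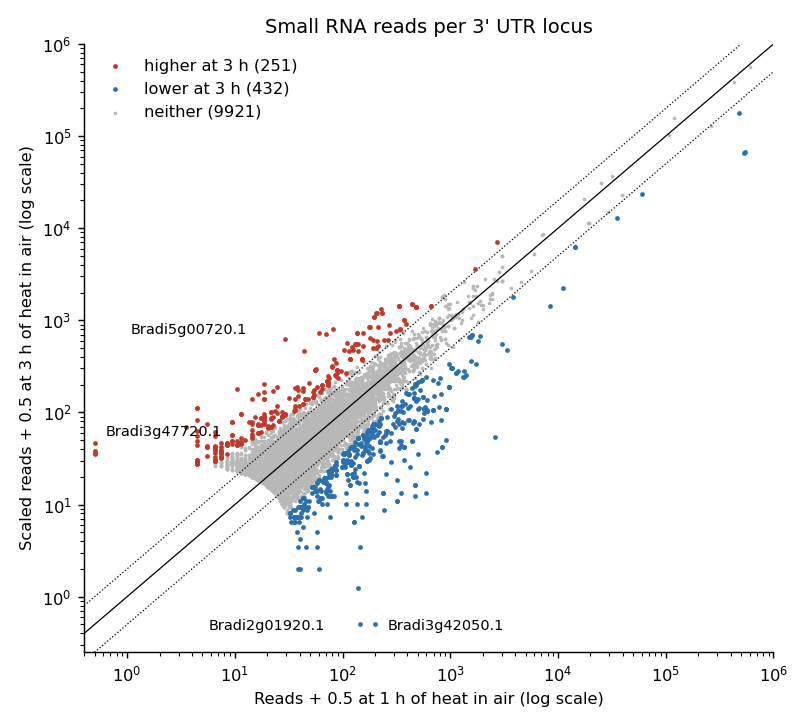
Scaled reads at 3 h (vertical) against reads at 1 h (horizontal) of heat in air for the 10604 loci, both plus 0.5 and on log scales, with equality (solid) and 2-fold (dotted) lines. Red points are the 251 loci higher at 3 h, blue points the 432 lower, and the labelled loci are those with the interval farthest from no change in each direction.

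The locus with the clearest increase was Bradi5g00720.1. It had 825 reads at 3 h and 29 at 1 h, 21.4-fold higher (14.8 to 32.1). Of its reads at 3 h, 794 (96.2%) were of 24 nt, against 8 of the 29 at 1 h. In scaled reads it stood at 619 in the 3 h air library and 29 in the 1 h air library, at 55.6 and 80.2 after 3 h and 1 h in water, and at 34.7 to 136.5 in the 4 libraries without heat. The 3 h library was thus high against all others at Bradi5g00720.1, and under TMM the 1 h library was the lowest of the 8. The unstressed library had 11 reads there, divided by 0.181 under TMM and by 0.788 under scaling by total reads. The lowest place of the 1 h library thus rests on TMM. Bradi3g47720.1 was the other, with 61 reads at 3 h and 0 at 1 h. It was at least 15.3-fold higher against a floor of 3 counts, and its exact interval began at 12.04-fold. Its reads were spread over lengths, with 15 nt leading at 13 of the 61.

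Both loci with the clearest decrease consisted almost wholly of 15 nt reads at 1 h in air. Bradi3g42050.1 had 0 reads at 3 h and 198 at 1 h, at least 87.9-fold lower against the floor of 3 counts, and 192 of the 198 were of 15 nt. Bradi2g01920.1 had 0 reads at 3 h and 144 at 1 h, at least 63.9-fold lower against that floor, with 142 of 15 nt. The exact intervals began closer to 1, at 70.8-fold lower for Bradi3g42050.1 and 51.3-fold lower for Bradi2g01920.1. Bradi3g42050.1 varied widely across the series, with 999 reads after 24 h of cold, 4 after 6 h of cold, 24 in the unstressed library, and 0 and 13 after 3 h and 1 h in water. Its length varied too: of the 999 reads, 830 were of 16 nt and 166 of 15 nt. Bradi2g01920.1 had 42 and 14 reads in water at 3 h and 1 h, and 152 and 4 in cold at 24 h and 6 h. Both had even counts only in the 2 air libraries, and with those counts halved the intervals began at 35.1-fold lower for Bradi3g42050.1 and 25.3-fold lower for Bradi2g01920.1. Bradi2g01920.1 has near-identical counts at loci of 3 genes in all, so its reads may belong to any of them.

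Split by read length, 10431 pairs of a locus and a length had 40 or more reads over both libraries, at 5386 loci. Of these pairs 494 (4.74%) were higher at 3 h and 1039 (9.96%) were lower. At 489 loci a pair was called although the locus as a whole was not, and 71 loci had pairs in both directions. Among pairs of 24 nt, 172 of 4732 were higher (3.63%) and 231 lower (4.88%), with a median log2 ratio of 0.09. Among pairs of 20 to 23 nt, 154 of 2760 were higher (5.58%) and 326 lower (11.8%), with a median of -0.20. Scaling by total reads turned the balance of this class, to 287 higher and 232 lower with a median of 0.41. Pairs of 21 nt moved both ways: 105 of 1231 were higher and 182 lower, with a median of -0.30. Among pairs of 15 to 19 nt, 139 of 1696 were higher (8.2%) and 283 lower (16.7%), and this too turned under total scaling, to 267 higher and 142 lower.

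Within the shortest class neighbouring lengths differed. Pairs of 15 nt had a median log2 ratio of -0.35, with 37 of 476 higher and 90 lower. Pairs of 16 nt had a median of 0.19, with 69 of 465 higher and 60 lower. Pairs of 18 nt had 1 of 207 higher and 46 lower, and those of 19 nt 4 of 212 higher and 31 lower. Of the lengths from 15 to 19 nt, 16 nt was thus the one with more pairs higher than lower under TMM.

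Among the longest reads the pairs of 33 nt or more were lower at 3 h under both scalings. Among pairs of 25 to 41 nt, 29 of 1243 were higher (2.33%) and 199 lower (16%). Those of 25 to 32 nt had 27 of 990 higher (2.73%) and 98 lower (9.9%), with a median log2 ratio of -0.03. Total scaling turned those balances, to 132 higher and 114 lower for 25 to 41 nt and 123 higher and 52 lower for 25 to 32 nt. Pairs of 33 to 40 nt had 2 of 253 higher (0.791%) and 101 lower (39.9%), with a median of -1.19 and 213 of the 253 below 0. The median went down with length, from -0.66 at 33 nt to -1.08 at 34 nt, -1.39 at 35 nt and -1.78 at 36 nt. All 29 pairs of 36 nt and all 20 of 37 nt were below 0. A locus can enter at several neighbouring lengths and a gene through several transcripts, so these pairs are not independent. Under scaling by total reads the 33 to 40 nt pairs stayed lower, with 9 higher, 62 lower and a median of -0.57. Of the 23 lengths with 20 or more pairs, 19 had a median below 0 under TMM and 5 under total scaling, and the negative medians below 33 nt do not hold under both. Under total scaling 24 nt pairs had 450 higher and 159 lower.

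**Figure D3:**
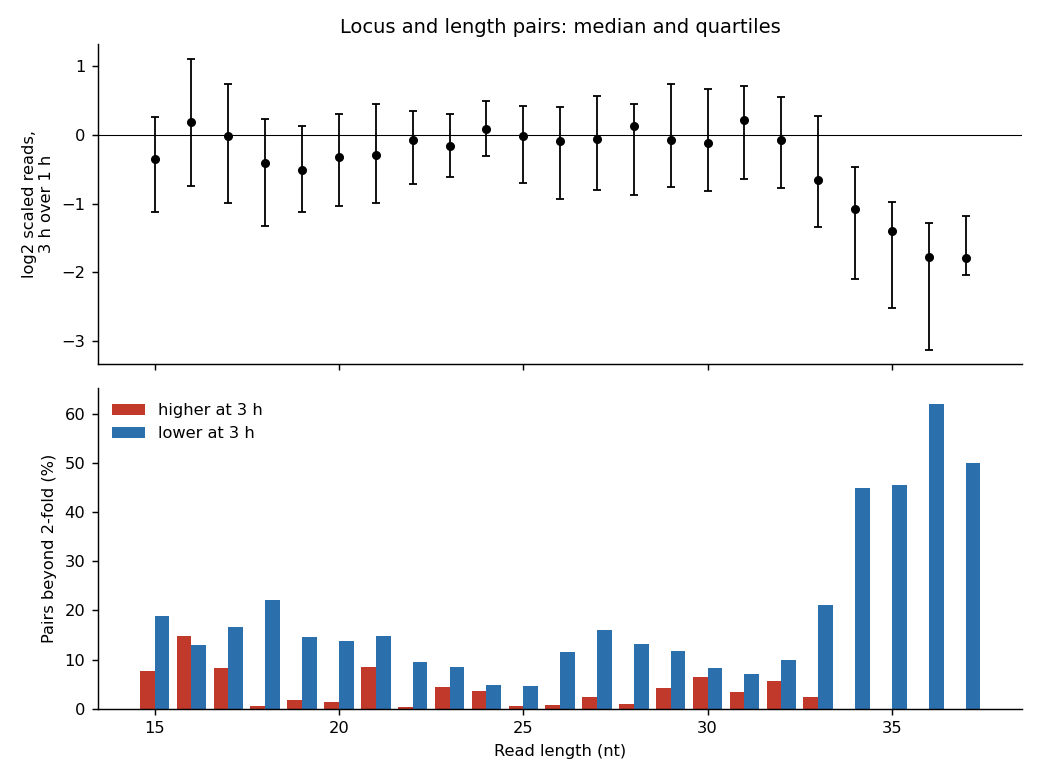
Locus and length pairs by read length (nt), for lengths with 20 or more pairs: the median and quartiles of the log2 ratio of scaled reads, 3 h over 1 h (top), and the percentage of pairs beyond 2-fold, higher at 3 h in red and lower in blue (bottom). Medians lie between -0.51 and 0.21 up to 32 nt and go down to -1.78 at 36 nt, where 62.1% of pairs were lower.

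Pairs of long reads were, as a class, also lower at the later time in water, in 2 libraries that the air comparison does not use. There 64 of 203 pairs of 33 to 41 nt were lower at 3 h and 9 higher, with a median log2 ratio of -1.13 and 154 below 0. Reads of 38 nt went the other way in water as a share of all reads, with 1.455% at 3 h and 1.001% at 1 h. Of the 11 pairs of 38 nt in water, 2 were higher and 0 lower, with a median of -0.34. Under TMM the medians up to 32 nt had opposite signs in air and water at 15, 17 to 21, 24, 28 and 31 nt. At the other lengths up to 32 nt, 16 nt among them, the signs were the same. Pairs of 15 nt had a median of -0.35 in air and 0.85 in water, where 78 of 290 were higher and 15 lower. Pairs of 24 nt had a median of 0.09 in air and -0.21 in water, where 98 of 2839 were higher and 229 lower. Pairs of 16 nt had medians of 0.19 in air and 0.26 in water. With total scaling the medians at 15, 17 to 21 and 24 nt were above 0 in both. They were 0.26 in air and 1.15 in water for 15 nt, and 0.70 and 0.09 for 24 nt. The opposite signs at those lengths thus rest on TMM. At 27 to 32 nt total scaling gave medians above 0 in air and below 0 in water. No test of these differences between air and water was possible with 1 library each.

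Loci of 24 nt reads made up a smaller share of the loci called than of the loci compared. Each locus was given the length class that led its reads in the 6 other libraries, so that the class does not use the 2 libraries compared. A class was summed over its lengths, so 24 nt alone was set against sums of several lengths. The 24 nt class led 35.1% of the higher loci (88 of 251) and 33.6% of the lower loci (145 of 432), against 51.2% of all loci. As a single length, 24 nt led more loci: 139 of the 251 higher, 201 of the 432 lower and 6733 of all 10604. Loci led by 15 to 19 nt were 28.3% of the higher and 28.9% of the lower loci, against 19.4% of all. Those led by 20 to 23 nt were 17.5% of the higher and 19.4% of the lower loci, against 13.2% of all. Those led by 25 to 41 nt were 15.1% of the higher and 17.6% of the lower loci, against 15.8% of all. Loci led by 24 nt had a median of 122 reads over both libraries and loci led by 15 to 19 nt 73, and the part of depth in these shares was not tested.

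Many calls did not hold without 1 read length. When each locus lost the length with the largest scaled difference in its direction, 72 of the 251 higher loci (28.7%) and 150 of the 432 lower loci (34.7%) were still beyond 2-fold by the same rule. That length was 24 nt at 92 higher and 154 lower loci, 15 nt at 31 and 106, 16 nt at 37 and 32, and 21 nt at 33 and 70. Reads were also more concentrated where a locus was high. At higher loci the leading length held a median of 61.3% of reads at 3 h and 44.4% at 1 h. At lower loci it held 33.3% at 3 h and 51.3% at 1 h, while over all loci it held 44.4% at 3 h and 43.3% at 1 h. Removing a length also removes reads, so part of the loss comes from wider intervals. The loci and the length removed were chosen by the same 2 libraries, so part of the loss is given by the choice. The same holds for the concentration where a locus was high.

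The share of 24 nt reads within a locus needs no scaling between libraries. It was compared at the 1983 loci with 100 or more reads in each library, and called where the 2 exact intervals did not overlap and the shares differed by 10 percentage points or more. The share was higher at 3 h at 276 loci (13.9%, 187 genes) and lower at 137 (6.91%, 95 genes), and the median locus differed by 1.93 points. Loci with a higher share had medians of 71.7% at 3 h and 43.5% at 1 h. Loci with a lower share had medians of 42.3% at 3 h and 71.8% at 1 h. Of the 276, 26 were also higher in level (9.42%) and 17 lower (6.16%), against 2.98% higher and 6.15% lower over the 1983 loci. Their share and their level come from the same reads. At these loci the median log2 ratio was 0.66 for 24 nt reads and -0.81 for the other reads. At the 137 loci it was -1.23 for 24 nt reads and 0.45 for the others, with 13 higher (9.49%) and 37 lower (27.0%) in level.

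In the largest differences 24 nt and 21 nt reads exchanged places. At Bradi2g11090.1 24 nt reads were 94.2% of 625 reads at 3 h (92.1% to 95.9%) and 10.1% of 138 reads at 1 h (5.66% to 16.4%). Its 24 nt reads numbered 589 at 3 h and 14 at 1 h, and its 21 nt reads 8 at 3 h and 111 at 1 h. Bradi2g61370.1 showed the same exchange, with 24 nt at 93.4% of 635 reads at 3 h and 10.5% of 124 at 1 h. There 21 nt reads numbered 16 at 3 h and 104 at 1 h. Its 24 nt reads numbered 593 at 3 h and 13 at 1 h, close to those of Bradi2g11090.1. Over all lengths and libraries the counts of the 2 loci were not within 10%. Whether the same reads were counted at both in air was not tested. In both loci, then, 24 nt reads led at 3 h and 21 nt reads at 1 h. Their scaled levels were also higher at 3 h, 3.40-fold at Bradi2g11090.1 (2.82 to 4.12) and 3.84-fold at Bradi2g61370.1 (3.17 to 4.70). In water the shares ran the other way on few reads, with 24 nt at 5.08% of 59 reads at 3 h and 70.6% of 17 reads at 1 h for Bradi2g11090.1.

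The opposite exchange was found at Bradi3g25620.1, where 24 nt reads were 28.7% of 209 reads at 3 h (22.7% to 35.4%) and 91.3% of 404 at 1 h (88.2% to 93.9%). Its 21 nt reads numbered 89 at 3 h and 6 at 1 h, and its scaled level was 2.57-fold lower at 3 h (2.17 to 3.06). Bradi1g77090.1 had 24 nt at 22.97% of 148 reads at 3 h and 83.1% of 403 at 1 h, with 42 reads of 21 nt at 3 h and 19 at 1 h. It was 3.63-fold lower in level (2.997 to 4.41). At Bradi1g77090.1 the loss of 24 nt reads, 34 at 3 h against 335 at 1 h, was larger than the gain of 21 nt reads. Under scaling by total reads neither decrease in level was beyond 2-fold with its whole interval, at 1.68-fold for Bradi3g25620.1 and 2.37-fold for Bradi1g77090.1, while the shares do not depend on scaling.

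Over the 1983 loci the leading length was the same at both times at 1579 and different at 404 (20.4%). A lead of 24 nt at 3 h and 21 nt at 1 h was found at 76 loci, and a lead of 21 nt at 3 h and 24 nt at 1 h at 22. A lead of 16 nt at 3 h and 15 nt at 1 h was found at 33, and the reverse at 16. The exchange between 21 and 24 nt thus ran mostly towards 24 nt at 3 h. The 24 nt share was also compared in water. Of the 98 loci with a higher share in air and 100 or more reads in both water libraries, 43 had a higher share at 3 h in water, with a median difference of -1.5 points. Of the 33 loci with a lower share in air, 11 had a higher share at 3 h in water, with a median of -6.42 points. Over all 639 such loci the median was -0.72 points and 265 were above 0.

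**Figure D4:**
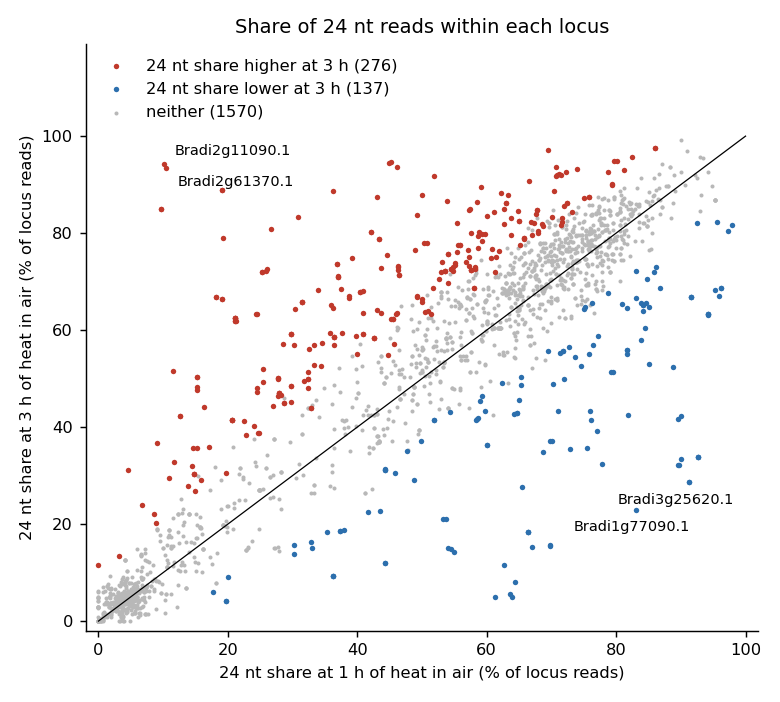
Share of 24 nt reads within each of 1983 loci at 3 h (vertical) against 1 h (horizontal) of heat in air, in percent of the locus's reads, with the line of equality. Red points are the 276 loci with a higher share at 3 h, blue points the 137 with a lower share, and 2 loci are labelled in each direction.

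At the loci called in air, water gave partly the same direction. Of the loci compared, 6748 also had 40 or more reads over the 2 water libraries, and 251 of these (3.72%) were higher and 261 (3.87%) lower at 3 h in water. Of the 168 higher loci that could be compared, 31 were higher in water too (18.5% of the air list and 12.4% of the water list) and 19 were lower (11.3% and 7.28%). Their median log2 ratio in water was 0.39, with 108 of 168 above 0. Of the 342 lower loci, 63 were lower in water (18.4% and 24.1%) and 34 higher (9.94% and 13.5%). Their median was -0.32, with 207 of 342 below 0, while all 6748 loci had a median of -0.004. The 24 nt class led all 19 loci higher in air and lower in water (14 genes). It led 12 of the 34 lower in air and higher in water. Of the loci called in the same direction in both, it led 4 of the 31 higher and 28 of the 63 lower. That class led 51.2% of all 10604 loci, and its share among the 6748 is not given. The leading class here also uses the 2 water libraries. Under total scaling 592 of the 6748 loci were higher and 152 lower in air, and 406 were higher and 175 lower in water. The counts were then 93 higher in both, 25 lower in both, 33 higher in air and lower in water, and 17 the reverse.

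**Figure D5:**
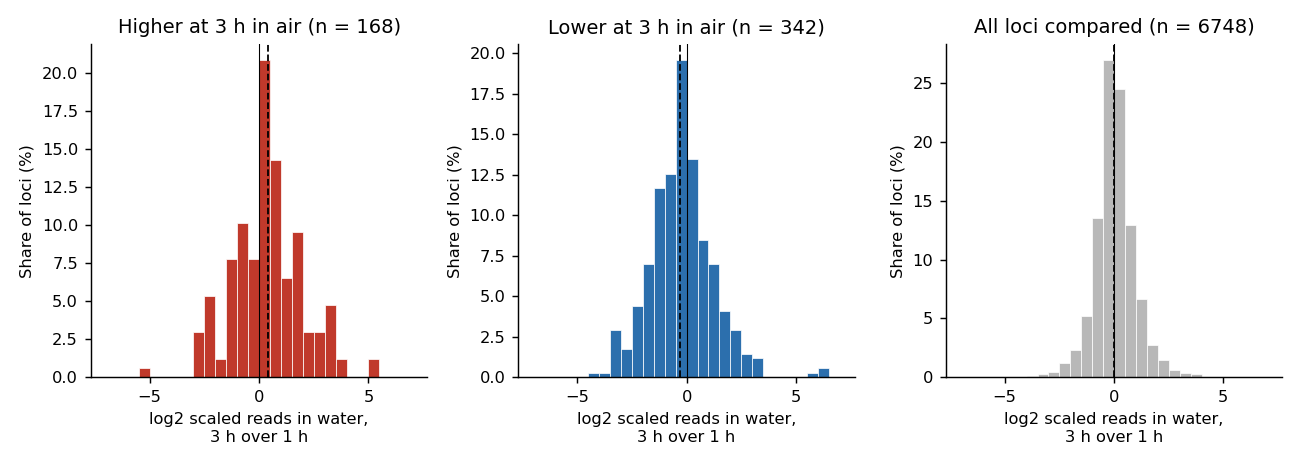
Log2 ratio of scaled reads in water, 3 h over 1 h, at the loci higher at 3 h in air (red, n = 168), lower at 3 h in air (blue, n = 342) and all loci compared (grey, n = 6748), as a percentage of loci per bin. The dashed lines are the medians, 0.39, -0.32 and -0.004, and the solid lines mark 0.

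Set among the 6 other libraries, calls came from either time. At the higher loci, 3 h of heat in air had more scaled reads than all 6 other libraries at 125 of 251 (49.8%, against 9.52% of all loci), and 1 h had fewer than all 6 at 48 (19.1%, against 7.86%). At the lower loci, 3 h had fewer than all 6 at 158 of 432 (36.6%, against 10.7%), and 1 h had more than all 6 at 197 (45.6%, against 8.84%). The lower loci had median scaled reads of 39.04 at 3 h and 168.5 at 1 h in air, 71.3 and 92.7 at 3 h and 1 h in water, 64.6 to 89.6 in cold and salt, and 99.6 without stress. On the TMM scale both air libraries were thus outside the median levels of the other libraries at these loci, on opposite sides. Reads of the unstressed library were divided by 0.181 under TMM, against 0.788 under scaling by total reads. The medians and places in this paragraph rest on TMM and are not given under total scaling. The higher loci had median scaled reads of 111 at 3 h and 25 at 1 h in air, against 30.3 to 66.9 in the others. Because the loci were chosen for the difference between these 2 libraries, an outer place of either library is partly given by the choice. Loci with 3 reads or fewer in each library without heat numbered 68 of 10604.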

How the data were processed

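The deposited values are whole-number counts of small RNA reads per 3' UTR transcript identifier and read length, called raw in the file headers and made by the authors. The header is shifted against its columns, so the column with values of 15 to 41 was taken as the length. The submitters' processing notes name bedtools 2.10.0, Bowtie 0.12.7 and CASAVA, without their roles. Not given in the sources used here are the genome build, the annotation, strandedness and how multi-mapping reads were treated, so reads of overlapping or near-identical loci can be counted more than once. Only 3' UTR reads are counted (4027943 at 3 h and 4622303 at 1 h), so these totals are not sequencing depths.

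Counts were summed per identifier, and the 3 h library was scaled to the 1 h library by TMM in edgeR 4.0.16 (R 4.3.3), with trims of 30% (log ratios) and 5% (mean levels), which gave 1.33. Ratios have exact (Clopper-Pearson) 95% intervals from the 2 counts, computed with scipy 1.17.1, pandas 2.3.3 and numpy 2.4.6 under Python 3.11.15. Figures were drawn with matplotlib 3.10.9. A locus or pair was called where the whole interval lay beyond 2-fold, with a floor of 3 counts against 0 reads. Log2 ratios in medians use 0.5 added reads. With 1 library per condition no count model was fitted and no p-value is given. The rule was tested on simulated data with counting error alone. Alternatives were scaling by total reads, by DESeq2 1.42.0 median ratios and by TMM to the unstressed library, other folds, filters and lengths, and halved counts.

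Named loci were the 2 per direction with the interval farthest from no change, any with most reads against 0, the 10 most abundant, 2 per direction by 24 nt share, and the leading locus of lengths that moved by 1 point or more. The loci and rules were chosen with earlier results of these data known. Lists made from gene descriptions were not run, because of 24118 genes 0 were found in RefSeq's table of 31335 genes (assembly Brachypodium_distachyon_v3.0).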

Additional observations from a re-analysis of the deposited data

Results flagged for a closer look

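Some results ran in opposite directions over time in air and in water, and the difference was not tested, since each condition had 1 library. Bradi3g25620.1, 2.57-fold lower at 3 h in air, was 2.84 times its 1 h level at 3 h in water (2.03 to 4.05), with 255 reads at 3 h and 41 at 1 h in water. Under scaling by total reads its decrease in air was 1.68-fold. In all, 19 loci were higher at 3 h in air and lower at 3 h in water, and 34 loci were lower in air and higher in water. Under scaling by total reads these counts were 33 of 592 loci higher in air and 17 of 152 lower in air. The share of 20 nt reads fell by 1.94 points at 3 h in air, to 8.73% against 10.7% at 1 h. In water it was 1.93 points higher at 3 h, 9.95% against 8.02% at 1 h. Without the 10 most abundant loci the 20 nt share was 3.35% at 3 h and 3.67% at 1 h in air, and 5.02% and 3.475% in water.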

How the results depend on the processing

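Under scaling by total reads 842 loci were higher and 185 lower, and 1136 pairs were higher and 647 lower. With the interval beyond 4-fold 45 loci were higher and 118 lower, and 214 pairs were higher and 461 lower. A point fold beyond 2 without an interval gave 906 and 1005 loci. A minimum of 200 reads left 120 and 243 loci and 173 and 289 pairs, and a minimum of 1 read gave 382 higher loci. Counts halved at random left 137 higher loci, reads of 20 to 24 nt 159, and loci without their most moved length 72 higher and 150 lower. With 1 identifier per gene 327 pairs were higher. The difference in 24 nt share of 5.71 points (3 h minus 1 h) was 4.12 without the 10 and 3.51 without the 100 most abundant loci, and 5.51 with 1 identifier per gene. The 24 nt to 21 nt ratio at 3 h was 1.29 times that at 1 h, and 1.26 times without the 10 loci. Loci with a higher or lower 24 nt share numbered 468 and 250 with 50 reads in each library, 135 and 54 with 200 reads, and 139 and 76 with a difference of 20 points. Stricter folds, filters and differences lower counts by construction, and other causes were not tested. Of 46 alternative counts of loci or pairs, 20 stayed within 1.5 times. These include median-ratio scaling (251 and 434 loci), scaling to the unstressed library (275 and 387) and 1 identifier per gene (180 and 294). They also include 3 alternatives added after the data were seen: even counts halved (237 and 417), 1 locus per near-identical group (187 and 306) and no reads of 33 nt or longer (251 and 416). Leaving out the most moved length was also added after the data were seen, and it too lowers counts by the choice of length. The differences in 24 nt share and in 24 nt to 21 nt ratio kept their direction. Under total scaling more loci and more pairs were higher than lower. As given above, some abundant loci and pair classes also turned under total scaling, and some length shares turned without the 10 loci. No paired analysis was possible because each condition had 1 library, and no replicate could be left out.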
